A study of Rattus norvegicus with 9 samples.

Results

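Liver X receptors (LXRs) and genes they are known to control were followed in rat oligodendrocyte precursor cell (OPC) cultures given bavisant, which blocks the histamine H3 receptor. The 8 genes were taken by symbol. They are the receptors Nr1h2 (LXR beta) and Nr1h3 (LXR alpha), the cholesterol exporters Abca1 and Abcg1, the apolipoprotein Apoe, the ubiquitin ligase Mylip, the phosphodiesterase Smpdl3a and the lipase Lpl. Each symbol had 1 row among the 32623 Ensembl gene rows of the tables, and all 8 were among the 15321 genes that passed the filter on low counts.

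LXRs are nuclear receptors that bind oxysterols, the oxidised forms of cholesterol that build up when a cell holds too much of it. They sit on DNA with a retinoid X receptor (RXR) partner and raise the transcription of genes that move cholesterol out of the cell and load it onto lipoproteins. In the brain this export is best known from astrocytes and microglia, which lipidate apolipoprotein E, while oligodendrocytes make large amounts of cholesterol for myelin. A second sterol system, led by SREBP2, works in the opposite sense and raises cholesterol synthesis and uptake when cell sterol is low.

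RNA was sequenced from 9 libraries of wild-type rat brain OPCs after 5 days in differentiation medium, with the medium renewed every 2 days. There were 3 basal libraries without bavisant, 3 with 1 µM and 3 with 10 µM bavisant. A protocol text writes 1 mM for the lower dose, whereas the treatment label and the design text write 1 µM, which is used here. No label names a vehicle for the basal cultures, a rat strain or the animals' age. The titles number the libraries of each dose P11, P13 and P14 without a word on what P means. Nor do they say whether a dose's libraries came from different animals or cultures, so the p-values measure the spread between these libraries, which may be technical. Depth ran between 23.9 and 43.1 M estimated reads per library, where M stands for 1e+06. Every basal library (23.9 to 33.5 M) was shallower than every library with bavisant (34.8 to 43.1 M).

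The 3 P11 libraries stood apart from the other 6. With the dose in the same fit, 50.6% of all tested genes differed between P11 and the mean of P13 and P14, and 4 of the 8 genes were among them. Abca1 was higher in P11 by 0.90 on the log2 scale, Mylip was higher by 0.47, Lpl was lower by a difference of -0.40 and Abcg1 was lower by a difference of -0.14 (edgeR adjusted p = 8.56e-05, 0.000952, 0.0159 and 0.0205 in that order). Libraries that shared a P number deviated from their dose means together, so each comparison is given both without the P number and with it as a block. RNA of all 9 oligodendrocyte markers was present and summed to 33760 to 51500 TPM (transcripts per 1e+06, a level corrected for gene length), against 936.7 to 1340 TPM for 5 OPC markers. RNA of other glia was present too, with 14 microglial and macrophage markers summing to 930.8 to 1470 TPM and 8 astrocyte markers to 1366 to 2335 TPM. None of these markers was at 0 reads in every library. In such mixed RNA, fewer cells of a type and less RNA per cell cannot be told apart.

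Per length, Apoe was the most abundant of the 8 genes and Nr1h3 the least. Over the 9 libraries Apoe averaged 3828 ± 454 TPM (SD, n = 9), which ranked it 16th among all genes by mean TPM. Nr1h2 followed with 52.5 ± 3.34 TPM, Abca1 with 48.1 ± 21.2 TPM and Smpdl3a with 41.8 ± 9.14 TPM, and the ranges of these 3 genes overlapped. The range of Abcg1, 18.1 to 31.0 TPM, overlapped those of Abca1 and Smpdl3a and lay above that of Mylip. Abcg1 averaged 24.9 ± 4.92 TPM, Mylip 12.3 ± 2.90 TPM and Lpl 9.25 ± 2.77 TPM. The ranges of Mylip (7.63 to 17.1 TPM) and Lpl (5.03 to 14.6 TPM) overlapped, so the order of that pair is not beyond their spread. Nr1h3 averaged 1.99 ± 0.59 TPM, and its highest library (2.71 TPM) was below the lowest Lpl library. LXR beta RNA thus overlapped Abca1 in level and lay above Abcg1, while LXR alpha RNA was at the bottom of the order.

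**Figure D1:**
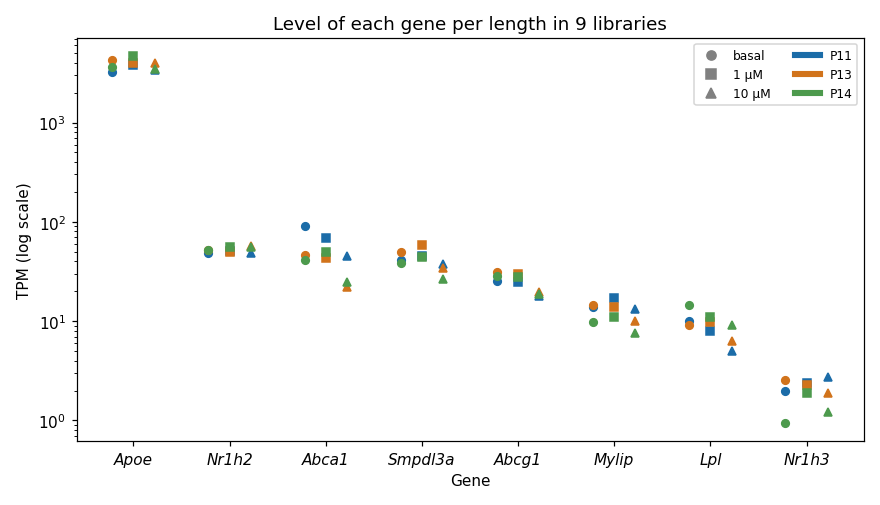
Level of each gene in TPM on a log axis, with 1 point per library, dose shown by marker shape and P number by colour. Apoe lies between 3256 and 4656 TPM, Nr1h3 between 0.95 and 2.71 TPM, and the other 6 genes lie in between, with Abca1 spread from 22.1 to 91.7 TPM.

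The question for dose was whether 10 µM or 1 µM bavisant shifted these genes from the basal level. At 10 µM the exporters Abca1 and Abcg1 and the lipase Lpl were lower than in basal cultures once libraries were compared within P numbers, where Abca1 fell by 46.2%, Abcg1 fell by 27.3% and Lpl fell by 37.1%. Against 1 µM, 10 µM had lower Abca1, Abcg1, Mylip and Smpdl3a. Apoe and both receptor genes passed no test, and no gene of the 8 passed a test at 1 µM against basal. Without the P number in the fit, edgeR called none of the 8, and no other tested gene, in any comparison.

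Nr1h2 (ENSRNOG00000019812) encodes LXR beta, the form found in most cell types. Its basal level was 54.2, 54.4 and 54.9 CPM (counts per 1e+06 reads, scaled between libraries by TMM) in P11, P13 and P14. At 1 µM it was 56.7, 51.7 and 58.9 CPM, and at 10 µM it was 56.3, 66.4 and 62.1 CPM. On this scale every 10 µM library was above every basal library, while the 1 µM values fell on both sides of the basal ones. In TPM the separation was absent, with the P11 library at 10 µM (48.7 TPM) below the basal libraries (48.8 to 52.5 TPM). The mean was 61.6 ± 5.09 CPM at 10 µM and 54.5 ± 0.33 CPM in basal cultures (SD, n = 3 each), a log2 fold change of 0.18 ± 0.07 (SE) that did not pass (edgeR adjusted p = 0.19 with the block and 0.97 without it).

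Nr1h3 (ENSRNOG00000013172) encodes LXR alpha, the form enriched in macrophages, liver and fat. It was barely sequenced, with 28 to 96 reads per library. Basal libraries had 43, 69 and 28 reads in P11, P13 and P14 (1.84, 2.24 and 0.82 CPM). Those at 1 µM had 87, 72 and 72 reads (2.23, 2.00 and 1.64 CPM), and those at 10 µM 96, 69 and 41 reads (2.57, 1.77 and 1.10 CPM). The reads are not scaled for depth, which was lower in basal libraries. On the CPM scale the P14 library was lowest at every dose, and all 3 doses overlapped. The log2 fold change at 10 µM against basal was 0.16 ± 0.25 with the block (edgeR adjusted p = 0.744), and its sign changed when the P11 libraries were left out (-0.01). The difference was smaller than its SE. The ratio of Nr1h2 to Nr1h3 in TPM was 20.4 to 55.1 in basal cultures, 21.5 to 29.9 at 1 µM and 18 to 46.1 at 10 µM, so Nr1h2 RNA was the more abundant in every library.

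Abca1 (ENSRNOG00000018126) encodes the transporter that moves cholesterol and phospholipid onto lipid-poor apolipoproteins. Its promoter carries a known LXR response element of the DR4 type in human and mouse. The DR4 consensus is 2 copies of the half-site AGGTCA on 1 strand with 4 bases between them. The search counted mismatches to this consensus, not to the known Abca1 element. Whether the rat match is the counterpart of that element was not tested. The rat promoter window from 250 bases before to 50 bases after the annotated start is shown because Abca1 had the largest fold change of the 8 genes at 10 µM against basal. The Smpdl3a window is shown because it is the other one of the 8 with a comparable match. Both are RefSeq sequences of build GRCr8, not the build rn6 named for the authors' reads. They are written along the gene's own strand, with the half-sites of the best DR4 match in capitals.
Abca1, chr5:72596424-72596723, minus strand: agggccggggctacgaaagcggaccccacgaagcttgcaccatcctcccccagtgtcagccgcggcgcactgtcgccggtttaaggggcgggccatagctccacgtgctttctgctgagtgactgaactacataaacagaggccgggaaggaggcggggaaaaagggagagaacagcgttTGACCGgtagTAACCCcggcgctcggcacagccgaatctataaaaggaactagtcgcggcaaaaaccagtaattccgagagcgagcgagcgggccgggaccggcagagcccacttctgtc
Smpdl3a, chr20:37678754-37679053, plus strand: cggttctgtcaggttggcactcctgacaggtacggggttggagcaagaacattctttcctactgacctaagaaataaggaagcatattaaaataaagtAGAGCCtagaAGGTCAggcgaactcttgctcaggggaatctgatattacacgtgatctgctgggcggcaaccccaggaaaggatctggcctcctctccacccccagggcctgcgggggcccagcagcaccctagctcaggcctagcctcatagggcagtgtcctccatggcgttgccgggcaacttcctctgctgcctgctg

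The Abca1 match reads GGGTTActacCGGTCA on the opposite strand and starts at position -70 from the annotated start. The Smpdl3a match reads AGAGCCtagaAGGTCA and starts at position -152. Each differs from 2 perfect half-sites at 3 of the 12 letters. Of the 8 genes, 6 symbols had promoter entries, 8 entries in all because Apoe had 3. Abcg1 and Lpl are named only. With at most 2 mismatches on either strand, 0 of the 8 entries held a match, against 2.93% of 33469 rat promoter entries. At most 3 mismatches, a limit added after the sequences were seen, gave 2 of 8 entries against 21.9% of all entries. A match describes letters in the window and shows no binding.

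Abca1 RNA was 566, 276 and 246 CPM in the basal P11, P13 and P14 libraries. At 1 µM it was 418, 256 and 290.1 CPM, and at 10 µM it was 282, 140.4 and 153 CPM. Within every P number the 10 µM library was the lowest of the 3 doses, but the P11 library at 10 µM was above the basal libraries P13 and P14, so the doses overlapped. The log2 ratio of 10 µM to basal was -1.0 in P11, -0.98 in P13 and -0.69 in P14. With the block the log2 fold change was -0.90 ± 0.11 (SE), a fold of 0.54, and passed (edgeR adjusted p = 0.012). Without the block it was -0.92 ± 0.39 and did not pass (adjusted p = 0.925). Against 1 µM the 10 µM value was -0.79 ± 0.11 with the block (adjusted p = 0.016), while 1 µM against basal was -0.10 ± 0.11 (adjusted p = 1), with P11 and P13 below basal and P14 above it. Both comparisons of 10 µM use the same 10 µM libraries and are not independent.

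Abcg1 (ENSRNOG00000001158) encodes the transporter that passes cholesterol to lipoprotein particles that already carry lipid. Basal libraries had 44.1, 52.2 and 47.8 CPM in P11, P13 and P14. At 1 µM they had 44.4, 50.6 and 47.8 CPM, and at 10 µM they had 33.4, 37.7 and 33.6 CPM. All 10 µM libraries were below all libraries of both other doses, and the log2 ratios of 1 µM to basal lay between -0.04 and 0.01. The mean was 34.9 ± 2.42 CPM at 10 µM and 48.0 ± 4.07 CPM in basal cultures (SD, n = 3 each). With the block the log2 fold change was -0.46 ± 0.05 (edgeR adjusted p = 0.0101), the 11th smallest p-value of all tested genes, and without it -0.46 ± 0.09 (adjusted p = 0.588). Against 1 µM it was -0.45 ± 0.05 with the block (adjusted p = 0.0129). DESeq2 without the block called Abcg1 in both comparisons of 10 µM (adjusted p = 0.00329 against basal and 0.00812 against 1 µM) and none of the other 7 genes.

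**Figure D2:**
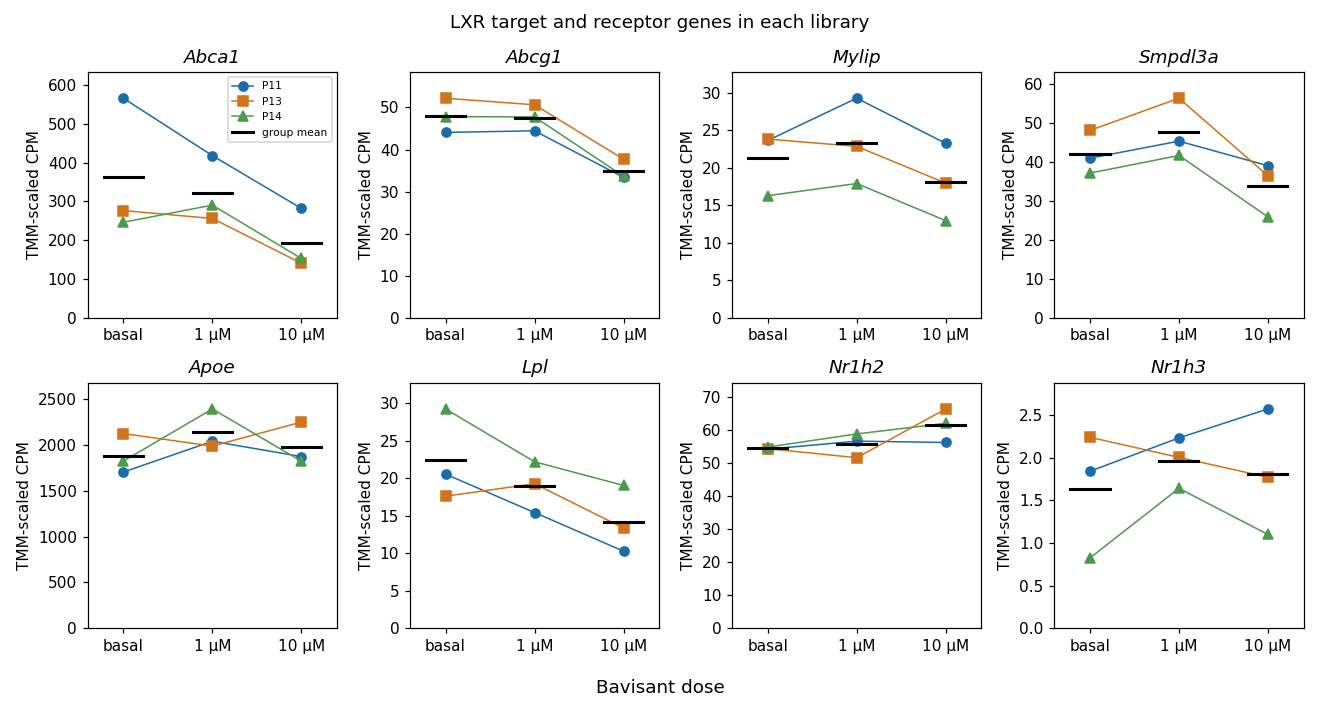
TMM-scaled CPM of the 8 genes at each dose, with 1 point per library, lines joining libraries of the same P number and black bars for the group mean (n = 3). Abca1, Abcg1, Mylip, Smpdl3a and Lpl are lowest at 10 µM within every P number. Abca1 is highest in P11 at every dose, and Nr1h2 at 10 µM lies at 56.3 to 66.4 CPM, above the basal 54.2 to 54.9 CPM.

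Apoe (ENSRNOG00000018454) encodes the main apolipoprotein that accepts exported cholesterol in the brain, and is an LXR target in macrophages and astrocytes. Basal libraries had 1701, 2121 and 1820 CPM in P11, P13 and P14. At 1 µM they had 2036, 1983 and 2388 CPM, and at 10 µM they had 1869.7, 2245 and 1819.8 CPM. The 3 doses overlapped, and the order of the doses differed between P numbers. At 10 µM against basal the log2 fold change was 0.07 ± 0.10 with the block (edgeR adjusted p = 0.687), against -0.46 for Abcg1 and -0.90 for Abca1 in the same fit. On the TPM scale the Apoe value was -0.04, so its direction depends on the scale. The median of all genes was -0.0722 on that scale, against -0.0112 in the blocked edgeR fit. The difference between Apoe and the exporters was not itself tested.

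Mylip (ENSRNOG00000017579) encodes a ubiquitin ligase, also called IDOL, that marks lipoprotein receptors for degradation and so limits cholesterol uptake. Basal libraries had 23.6, 23.8 and 16.3 CPM in P11, P13 and P14. At 1 µM they had 29.2, 22.8 and 17.9 CPM, and at 10 µM they had 23.2, 17.9 and 12.9 CPM. Every 10 µM library was below its 1 µM and basal partners of the same P number, with a log2 ratio of only -0.02 in P11 against basal, and the doses overlapped. The fall against 1 µM passed with the block (log2 fold change -0.38 ± 0.09, edgeR adjusted p = 0.0475) and was not called without it (adjusted p = 1). Against basal the blocked value was -0.26 ± 0.09 (adjusted p = 0.136).

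Smpdl3a (ENSRNOG00000000815) encodes a secreted phosphodiesterase related to acid sphingomyelinase, known as an LXR target in macrophages. Basal libraries had 41.0, 48.2 and 37.2 CPM in P11, P13 and P14. At 1 µM they had 45.4, 56.5 and 41.7 CPM, and at 10 µM they had 39.1, 36.5 and 25.9 CPM. All 10 µM libraries were below all 1 µM libraries, and 1 µM was above basal within each P number by 0.15 to 0.23 on the log2 scale. The fall at 10 µM against 1 µM was -0.51 ± 0.09 with the block (edgeR adjusted p = 0.0283) and -0.50 ± 0.18 without it (adjusted p = 1). At 10 µM against basal (-0.32 ± 0.09, adjusted p = 0.0915) and at 1 µM against basal (0.18 ± 0.09, adjusted p = 1) it did not pass. The value against basal was called with the block by DESeq2 and by edgeR without the P11 library at 10 µM (-0.47, adjusted p = 0.0194).

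Lpl (ENSRNOG00000012181) encodes lipoprotein lipase, which frees fatty acids from lipoprotein triglyceride and is an LXR target in liver and macrophages. Basal libraries had 20.6, 17.6 and 29.3 CPM in P11, P13 and P14. At 1 µM they had 15.5, 19.3 and 22.2 CPM, and at 10 µM they had 10.3, 13.4 and 19.1 CPM. Within every P number 10 µM was lowest, while the P14 library at 10 µM was above the basal P13 library. The log2 ratio of 10 µM to basal was -0.99 in P11, -0.40 in P13 and -0.62 in P14. With the block the log2 fold change was -0.67 ± 0.13 (edgeR adjusted p = 0.0305), and without it -0.66 ± 0.27 (adjusted p = 0.921). Against 1 µM the blocked value was -0.44 ± 0.12 (edgeR adjusted p = 0.0905), which DESeq2 with the block called (adjusted p = 0.0281).

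**Figure D3:**
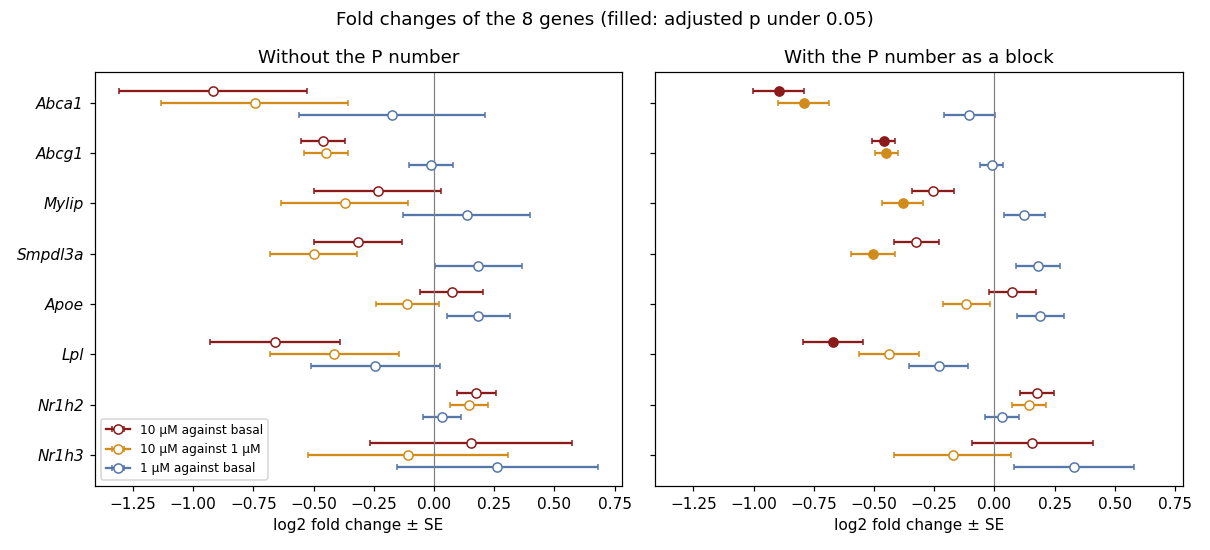
Log2 fold change ± SE of the 8 genes in the 3 comparisons, without the P number (left) and with it as a block (right), with filled points where the edgeR adjusted p is under 0.05. Point positions barely differ between the panels, while the bars are shorter on the right, where 3 genes are filled at 10 µM against basal, 4 at 10 µM against 1 µM and none at 1 µM against basal.

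Counted over the 8 genes, the blocked edgeR fit called 3 lower and 0 higher at 10 µM against basal, where 3.96% of all tested genes were called, 2.64% lower and 1.32% higher. It called 4 lower and 0 higher at 10 µM against 1 µM, where 4.30% of all tested genes were called, 3.0% lower and 1.31% higher. At 1 µM against basal it called 0 of the 8 genes and 0% of all genes, with 0 of the 8 and 582 of 15321 genes at an unadjusted p under 0.05 and 11 of all genes called by DESeq2 and 0 by limma on TPM. Without the block edgeR called 0% of genes in each comparison. At an unadjusted p under 0.05 that fit held 3 of the 8 and 808 of all genes at 10 µM against basal, 2 of the 8 and 717 of all at 10 µM against 1 µM, and 0 of the 8 and 81 of all at 1 µM against basal, and DESeq2 called 59, 60 and 5 genes in that order, and limma on TPM 0 in each. The median log2 fold change of the 8 genes with the block was -0.29 at 10 µM against basal, -0.41 at 10 µM against 1 µM and 0.08 at 1 µM against basal. The medians over all tested genes in the same fits were -0.0112, -0.0045 and -0.00319. The share of blocked calls that were lower varied with the scaling and with the libraries used. At 10 µM against basal it was 66.7% with TMM, 84.3% with library totals and 82.9% with limma, another test, on TPM. At 10 µM against 1 µM it was 69.7%, 87.4% and 84.5%. With TMM but without the P11 libraries it was 90% of 10 calls against basal and 89.1% of 110 calls against 1 µM.

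Single libraries ended some of these calls. The Abca1 call at 10 µM against basal was lost without basal P11 (edgeR adjusted p = 0.0547), basal P13 (0.0746) or the P14 library at 10 µM (0.0504), and the Abcg1 call without basal P11 (0.0547) or basal P13 (0.0597). The Lpl call held only without the P13 or the P14 library at 1 µM, in 2 of 9 such fits. At 10 µM against 1 µM the Abca1 call was lost without any 1 µM library or P14 at 10 µM (adjusted p = 0.0577 to 0.0756), and the Abcg1 call without P11 or P14 at 1 µM or P14 at 10 µM (0.0582 to 0.0651). Leaving out P11 or P14 at 1 µM or P14 at 10 µM ended every call among all tested genes at 10 µM against 1 µM. The Mylip and Smpdl3a calls in this comparison held in 3 of 9 fits without 1 library each, namely without basal P11, basal P13 or P11 at 10 µM. Without all 3 P11 libraries, Abca1 was still called against basal (-0.82, adjusted p = 0.046), while Abcg1 (-0.47, adjusted p = 0.0601) and Lpl (-0.50, adjusted p = 0.128) were not. In the same 6 libraries, Abca1 (adjusted p = 0.0239), Abcg1 (0.0447) and Smpdl3a (0.0281) were called at 10 µM against 1 µM, and Mylip was not (0.0923). The count of all genes called was then 10 at 10 µM against basal and 110 at 10 µM against 1 µM.

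Genes around the LXR system came from lists of 78 symbols, of which 74 were in the tables and 60 were tested. With the block, 12 of the 60 were called at 10 µM against basal, where 3.96% of all tested genes were called, 11 at 10 µM against 1 µM, where 4.30% were, and 0 at 1 µM against basal. At these shares 0 calls in a list of 9 or fewer genes does not set it apart from other genes. Without the block edgeR called 0 of the 60 in each comparison, and with the block but without the P11 libraries 0, 1 and 0. Leaving out basal P11, basal P13 or P14 at 10 µM alone also left 0 at 10 µM against basal, and leaving out P11 or P14 at 1 µM or P14 at 10 µM left 0 at 10 µM against 1 µM. Over all tested genes edgeR called 0 in each comparison without the block. With the block but without the P11 libraries it called 10, 110 and 0 of all genes in the same order. Of 9 LXR partners and cofactors, 0 were called, among them the receptor partners Rxra (-0.23, adjusted p = 0.205) and Rxrb (0.12, adjusted p = 0.328). Of 9 other LXR targets tested, 2 were called lower at 10 µM against basal and 0 higher. Srebf1, which encodes the transcription factor for fatty acid synthesis, had 26.9, 31.1 and 39.2 CPM at 10 µM and 53.2, 44.0 and 51.2 CPM in basal cultures (P11, P13 and P14), with no overlap. Its log2 fold change was -0.62 ± 0.12 (adjusted p = 0.0315). Mertk, a receptor for the uptake of dead cells and an LXR target in macrophages, had 18.9, 16.8 and 19.9 CPM at 10 µM and 25.0, 24.4 and 23.6 CPM in basal cultures, again with no overlap (-0.40 ± 0.09, adjusted p = 0.0451). The other 7 did not pass, with Fasn, the fatty acid synthase, at -0.25 (adjusted p = 0.0556) and Scd, a fatty acid desaturase, at 0.03 (adjusted p = 0.875).

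Among 7 tested genes that make or remove oxysterols, 0 were called at 10 µM against basal, with a median log2 fold change of -0.17 with the block. Ch25h, the cholesterol 25-hydroxylase, had 3.88, 4.85 and 4.61 CPM at 10 µM and 6.93, 5.74 and 8.04 CPM in basal cultures and missed the threshold (-0.63 ± 0.16, adjusted p = 0.0621), although the groups did not overlap. Of 4 tested lipoprotein receptors 0 were called, among them Vldlr, a substrate of Mylip (0.01 ± 0.05, adjusted p = 0.953). Of 16 tested genes for storage and movement of cholesterol, only Gramd1b was called against basal, a carrier of cholesterol from the plasma membrane to the endoplasmic reticulum. It was lower, with 10.0, 10.4 and 13.8 CPM at 10 µM and 13.5, 17.1 and 18.2 CPM in basal cultures, and the P14 library at 10 µM was above basal P11 (-0.52 ± 0.08, adjusted p = 0.0224). Lipa, the lysosomal cholesterol ester hydrolase, was called lower at 10 µM against 1 µM (-0.31, adjusted p = 0.0367) and missed the threshold against basal (-0.27, adjusted p = 0.0542). Of 6 tested lipase helpers and regulators, Angptl4, an inhibitor of lipoprotein lipase, was called lower, with 1.53, 1.80 and 1.21 CPM at 10 µM and 2.18, 5.19 and 2.24 CPM in basal cultures (-1.01 ± 0.20, adjusted p = 0.0359). Its groups did not overlap, and its 10 µM libraries held 45 to 70 reads.

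Most SREBP2-driven sterol genes were called higher at 10 µM within P numbers. Of 9, 8 were called higher at 10 µM against basal with the block and 0 lower, with a median log2 fold change of 0.41, and Lss, the lanosterol synthase, did not pass (0.26, edgeR adjusted p = 0.056). Without the block, or with it but without the P11 libraries, edgeR called 0 of the 9. At 10 µM against basal these fits called 0 and 10 of all tested genes, so 0 of 9 does not set the list apart. Idi1, an isomerase of the mevalonate pathway, had 347, 306 and 327 CPM at 10 µM and 242, 198 and 217 CPM in basal cultures, with no overlap (0.58 ± 0.07, adjusted p = 0.0129). Insig1, the sterol-sensing brake on SREBP processing, was at 0.56 ± 0.07 (adjusted p = 0.0129), and Sqle, the squalene epoxidase of cholesterol synthesis, at 0.34 ± 0.06 (adjusted p = 0.0273). At 1 µM against basal 0 of the 9 were called, with a median of 0.08.

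**Figure D4:**
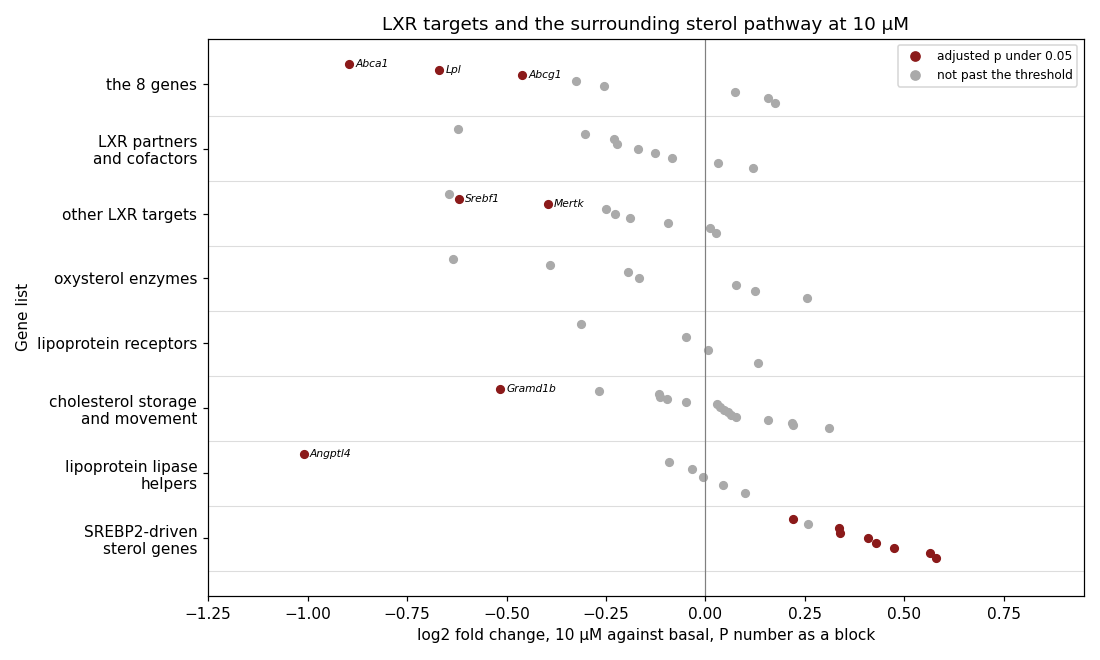
Log2 fold change at 10 µM against basal, with the P number as a block, for the 8 genes and for each tested gene of 7 lists, in red where the edgeR adjusted p is under 0.05 and grey otherwise. Called LXR targets and Gramd1b and Angptl4 lie left of 0, whereas 8 called SREBP2-driven genes of 9 lie right of it.

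Some markers of other cells were called by edgeR in the same comparisons with the block, where 3.96% of all tested genes were called at 10 µM against basal and 4.30% at 10 µM against 1 µM. Without the block edgeR called 0 markers and 0 of all tested genes. With it, 3 of 14 microglial and macrophage markers were called lower at 10 µM against basal and 0 higher (Itgam, Cd68 and Mrc1), 13 of 14 had a negative log2 fold change, and the median was -0.20. Their summed level was 984 to 1412 TPM in basal cultures, 1115 to 1470 TPM at 1 µM and 930.8 to 1095 TPM at 10 µM, and none was at 0 reads in all libraries. At 1 µM against basal the median of this list was 0.16, with 0 of 14 called. At 10 µM against 1 µM it was -0.35, all 14 were negative and 6 were called lower (Aif1, Itgam, C1qa, Trem2, Cd68 and Mrc1). Of 8 astrocyte markers, 2 were called lower at 10 µM against basal (Slc1a2 and Slc1a3), 7 were negative, and the median was -0.30. The astrocyte list summed to 1366 to 1912 TPM at 10 µM and 1780 to 2215 TPM in basal cultures. Of 9 oligodendrocyte markers, 6 were called higher and 0 lower, and the list summed to 46490 to 51500 TPM at 10 µM and 34940 to 39430 TPM in basal cultures. Of 7 tested neuron markers, 3 were called lower (Gad1, Gad2 and Stmn2), all 7 were negative, and the median was -0.20. The neuron list summed to 200 to 337 TPM at 10 µM and 226 to 469 TPM in basal cultures. The median over all tested genes in that fit was -0.0112. Of 3 Schwann cell markers, Pmp2 was called higher (0.42, adjusted p = 0.039). None was called at 10 µM against basal among 5 tested OPC, 4 endothelial, 5 mural and fibroblast markers and 1 choroid plexus marker, although the medians were -0.64 for the endothelial list and -0.46 for the mural and fibroblast list. At 10 µM against 1 µM, where Mylip and Smpdl3a were called, the endothelial marker Cdh5 (-0.59, edgeR adjusted p = 0.0455), the fibroblast markers Col1a1 (-0.69, 0.0225) and Dcn (-0.58, 0.0476) and the choroid plexus marker Ttr (-0.48, 0.0123) were called lower. The astrocyte marker Gja1 (-0.51, 0.0455) and the neuron marker Gad1 (-0.24, 0.0393) were lower there too, and 6 of 9 oligodendrocyte markers were called higher. The endothelial list summed to 2.99 to 22.6 TPM in basal cultures, 3.82 to 25.4 TPM at 1 µM and 2.23 to 18.3 TPM at 10 µM. The mural and fibroblast list summed to 33.5 to 229 TPM in basal cultures, 37.8 to 218 TPM at 1 µM and 25.6 to 157 TPM at 10 µM. The part of these cell types in the values of Abca1, Abcg1, Lpl, Mylip and Smpdl3a was not tested.

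After subtracting the mean of each P number, Abca1 and Abcg1 varied together over the 9 libraries (Pearson r = 0.95 on log2 CPM), and without that step r was 0.41. The points share libraries and dose. Mylip and Smpdl3a had r = 0.91, Abcg1 and Mylip 0.87 and Abca1 and Lpl 0.84 on the centred scale. Without centring these were 0.78, 0.36 and 0.13. On the centred scale Nr1h2 ran against Abca1 and Abcg1 (r = -0.74 with each), Smpdl3a (-0.76), Lpl (-0.66) and Mylip (-0.62). Apoe had r of 0.04 with Abca1, 0.11 with Abcg1, 0.425 with Mylip, 0.71 with Nr1h3 and -0.35 with Lpl.

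Among 10406 named genes with a mean of at least 5 TPM, the 5 most like each called gene were found by the same centred correlation over 9 libraries. For Abca1 they were Cerk (r = 0.99), the ceramide kinase, followed by Wwc1, Lrp4, Slc7a8 and Igdcc4 (0.98 to 0.99), all 5 called lower at 10 µM against basal with the block. Genes chosen this way follow the dose pattern of the gene they were matched to, so their direction was largely fixed by the choice and is given as a description. For Abcg1 they were Marchf3, Mmp2, Cdc42ep5, Ppp1r18 and Eng (r from 0.99 to 1.00), of which Mmp2, a secreted metalloproteinase, had a log2 fold change of -0.64 (edgeR adjusted p = 0.0101). For Mylip they were Ncf4, Trem2, Fbln1, Csf2rb and Nrros (0.98 to 1.00), and for Smpdl3a Capg, Plau, C5ar1, Serping1 and Cd53 (0.98 to 0.99). Ncf4 encodes a subunit of the phagocyte oxidase, Trem2 a receptor of microglia and Cd53 a leukocyte tetraspanin. At 10 µM against basal these were not called with the block (edgeR adjusted p = 0.172, 0.173 and 0.176), and neither were Mylip and Smpdl3a. Among the matches to Mylip and Smpdl3a only Csf2rb was called there (edgeR adjusted p = 0.0455). Trem2 is the only one of these matches on a marker list, and Fbln1 had the highest mean level (83.3 TPM). At 10 µM against 1 µM, where Mylip and Smpdl3a were called, Trem2 was called lower with the block (-0.44, edgeR adjusted p = 0.0393). Values of the other matches in that comparison are not given here. For Lpl they were Rundc3b, Frmpd1, Ext1, Mapk4 and Dusp4 (0.97 to 0.99), of which none was called at 10 µM against basal.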

How the data were processed

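The 8 genes and all lists were chosen with earlier results of these data known. Some genes of the lists around the LXR system are not reported here, and the counts, medians and plot of those lists leave them out. The authors' tools were DRAGEN, Picard, Trimmomatic and FastQC on build rn6, per the submitters' processing notes. What counted the reads, with which annotation and on which strand, is not given in the sources used here. RNA was prepared with a stranded mRNA kit per the labels' protocols. The authors deposited estimated counts per gene (92.7% whole; all 8 genes whole in every library), without scaling between libraries. The authors also deposited TPM values, scaled by gene length to a sum of 1e+06 per library. Unnamed IDs (399) held at most 0.0111% of a library's reads.

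Counts were rounded and tested in R 4.3.3 with edgeR 4.0.16 (quasi-likelihood F test, TMM, filterByExpr with a count minimum of 10 and a total minimum of 15, all 9 libraries, 1 coefficient per dose). P-values were adjusted by Benjamini-Hochberg over all 15321 genes tested, and genes under 0.05 were called. The SE is the fold change over the square root of F. CPM values use TMM factors. Levels between genes are compared in TPM only. The main fit has no block. Same-numbered libraries were checked for pairing from their deviations from dose means: all 9 pairs correlated above the minimum of 0.1 (0.319 to 0.772, against -0.708 to 0.193 in 18 other pairs), so a second fit with P as an additive block stands beside it. The numbers come from the sample titles. Depth was 23.9 to 43.1 M reads (M for 1e+06), and no pair of libraries of the same dose agreed within counting noise. Pairs across doses were not checked for this.

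Other settings were DESeq2 1.42.0, RLE size factors, library totals, limma 3.58.1 on log2(TPM + 1) and log2(TPM + 0.1), a filter at a mean of 100 reads, none on counts, the compared groups alone, the P11 libraries left out and each library left out. The scripts were tested on simulated data. Genes named are the 8, called list members and those needed to describe a list, and the 5 genes most like each called gene (Pearson r of log2 CPM with a prior count of 2 after centring per P number, mean TPM of at least 5). Promoters are from RefSeq, build GRCr8. No genome was used here.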

Additional observations from a re-analysis of the deposited data

How the results depend on the processing

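The replicate block changed the calls. With it edgeR called 607 genes, 3 of the 8 and 12 list genes at 10 µM against basal, and 659, 4 and 11 at 10 µM against 1 µM, against 0 of each without it; it changed no call at 1 µM against basal. DESeq2 without the block called 59, 60 and 5 genes (10 µM against basal, 10 µM against 1 µM, 1 µM against basal), 1 of the 8 in each 10 µM comparison, and 5 and 4 list genes there. With the block DESeq2 called 944 genes at 10 µM against basal and 11 at 1 µM against basal, and limma on TPM called 6 list genes at 10 µM against 1 µM. With the block and without the P11 libraries, 10 genes, 1 of the 8 and 0 list genes were called at 10 µM against basal, and 110 genes and 1 list gene at 10 µM against 1 µM.

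Leaving out each library with the block gave 0 to 581 genes, 0 to 3 of the 8 and 0 to 10 list genes at 10 µM against basal, 0 to 651, 0 to 4 and 0 to 9 at 10 µM against 1 µM, and 0 to 2 genes at 1 µM against basal. At 10 µM against basal, basal P11 left 0 genes and basal P13 left 1; at 10 µM against 1 µM, P11 or P14 at 1 µM or P14 at 10 µM left 0. These fits hold fewer libraries. The Lpl call at 10 µM against basal held in 2 of 9 such fits, and the Mylip and Smpdl3a calls at 10 µM against 1 µM in 3 of 9 each.

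Signs turned in values that were not called. Without P11, Abca1 at 1 µM against basal was 0.069 with the block and 0.072 without it, and Nr1h3 at 10 µM against basal was -0.0097 with it and -0.067 without it. Apoe at 10 µM against basal was -0.042 under limma on TPM at both pseudocounts, with and without the low-value filter, and with the block. The median of all genes in these limma fits ran between -0.0779 and -0.0436. With 1 library left out, the blocked ranges crossed 0 for Abca1 (-0.24 to 0.037), Abcg1 (-0.031 to 0.0019) and Nr1h2 (-0.011 to 0.11) at 1 µM against basal, for Apoe (-0.0026 to 0.16) and Nr1h3 (-0.043 to 0.46) at 10 µM against basal, and for Apoe (-0.26 to 0.0069) and Nr1h3 (-0.38 to 0.075) at 10 µM against 1 µM. Without the block they did so at 1 µM against basal for Abca1 (-0.41 to 0.30), Abcg1 (-0.071 to 0.051), Mylip (-0.057 to 0.30), Nr1h2 (-0.0097 to 0.084) and Nr1h3 (-0.061 to 0.57), at 10 µM against basal for Apoe (-0.028 to 0.17) and Nr1h3 (-0.18 to 0.46), and at 10 µM against 1 µM for Nr1h3 (-0.45 to 0.15). The cause was not tested. Abca1, Abcg1, Lpl, Mylip and Smpdl3a were negative in both 10 µM comparisons under every setting run. Nr1h3 has no value under the mean of 100 reads. With 3 libraries per dose, no library was tested as an outlier.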
